A study of Mus musculus with 18 samples.

Results

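The Nodal signalling genes examined here are 10 genes chosen by symbol for their roles in the pathway: the co-receptor gene Tdgf1, the ligand genes Nodal and Gdf3, the inhibitor genes Lefty1 and Lefty2, the receptor genes Acvr1b and Acvr2b, and Smad2, Smad3 and Smad7. All 10 were on the array, each through a single probe set annotated to it alone, among 19937 genes in all. Their levels were followed over 18 mouse arrays in 6 groups of 3. CD1 MEFs, embryonic fibroblasts of the CD1 strain, were the starting cells. EOS3F-24 was a partially reprogrammed induced pluripotent stem (iPS) line made from such fibroblasts with the retroviruses pMX-Oct4, pMX-Klf4 and pMX-Sox2. EOS3F-24 was measured again after it had been converted in 2i medium, which held LIF, 2 μM of a MEK inhibitor and 12 μM of a GSK inhibitor. EOS3F-28 and EOS3F-29 were the 2 fully reprogrammed lines made with the same retroviruses, and J1 was the embryonic stem (ES) cell line.

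All iPS groups were kept in puromycin at 1 μg/mL, and both iPS and J1 cells were cultured with LIF over arrested feeders, whereas the MEFs were grown in serum medium and are not described as having feeders, LIF or puromycin. In comparisons with MEFs these conditions cannot be told apart from reprogramming. No puromycin is listed for J1, so comparisons of iPS groups with J1 hold this difference too. The labels call the iPS lines clones, so the partial state is represented by 1 line. Nothing in the labels says whether the 3 arrays of a group came from separate cultures. The p-values therefore rest on how much these arrays vary, and that variation may be technical.

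Nodal is a secreted ligand of the TGF-beta superfamily. It binds type II receptors such as the product of Acvr2b and type I receptors such as the product of Acvr1b, and it needs a co-receptor of the Cripto type, which Tdgf1 encodes. The receptors phosphorylate Smad2 and Smad3, which enter the nucleus with Smad4 and act with partners such as Foxh1. Nodal itself, Lefty1 and Lefty2 are known targets of this signal in the early embryo, and the Lefty proteins feed back by blocking the ligand and its co-receptor. Mouse ES cells are known to express Nodal, Lefty genes, Gdf3 and Tdgf1.

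Values are log2 array values as deposited, a difference is between group means on that scale, and its error is the SE unless SD is named. A gene was called where its limma p, adjusted by Benjamini-Hochberg across the 19937 genes of a comparison, was under 0.05. The median over all probe sets of an array was 3.92 to 4.11. Over genes, arrays of the same group correlated at 0.970 or more, and having 3 of them per group limits the precision. The values come with no detection calls, and a level below the array medians is not shown to be above background. This holds on every array for Tdgf1 in MEFs, for Lefty1, Foxh1 and Eomes in MEFs and EOS3F-24, and for Lefty2 in MEFs. Lefty2 in EOS3F-24, Acvr2b in MEFs, and Nodal and Gdf3 in both of these groups lay close to the medians. Folds against these levels are ratios of the measured values, and the change in RNA may be larger. The mean of 7 pluripotency markers (Nanog, Zfp42, Esrrb, Dppa5a, Utf1, Sox2 and Epcam) was 3.45 to 3.72 on MEF arrays, 4.16 to 4.73 on EOS3F-24 arrays and 7.76 to 9.0 on the other 12 arrays. The mean of 9 fibroblast markers was 9.54 to 9.75 in MEFs and 6.11 to 8.49 in the 5 feeder-grown groups. In each feeder-grown group the array numbered 1 had the highest fibroblast marker mean, at 7.53 to 8.49. How much feeder RNA this reflects was not tested, and in bulk RNA fewer cells of a type and less RNA per cell cannot be told apart.

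Tdgf1 encodes Cripto, a membrane-anchored co-receptor for Nodal. It was low in MEFs, at 3.38, 3.38 and 3.40. In EOS3F-24 it stood at 6.51, 8.26 and 8.43, and after 2i at 10.08, 10.60 and 10.52. The EOS3F-24 arrays were apart from both the MEF arrays below and every array of the other groups above, with the array numbered 1 the lowest of the 3. EOS3F-28 read 9.72, 10.41 and 9.88, EOS3F-29 9.55, 10.36 and 10.01, and J1 10.06, 10.43 and 10.54. The order of the group means was converted cells (10.40), J1 (10.34), EOS3F-28 (10.00), EOS3F-29 (9.97), EOS3F-24 (7.74 ± 1.06, SD, n = 3) and MEFs (3.39). The first 4 of these overlapped with their neighbours.

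EOS3F-24 exceeded MEFs in Tdgf1 by 4.35 ± 0.35 (limma, adjusted p = 9.52e-08), a 20.4-fold difference in measured values. It stayed below the full lines, with a difference of -2.25 ± 0.31 (adjusted p = 4.18e-05). The low EOS3F-24 array also had the highest fibroblast marker mean of its group (8.23 against 7.04 and 6.63), and the part of that in its Tdgf1 level was not tested. With the 5 feeder-grown arrays numbered 1 left out, the difference was 4.96 from MEFs and -1.82 from the full lines (limma, adjusted p = 1.06e-11 and 4.13e-07). From EOS3F-24 to converted cells Tdgf1 rose by 2.66 ± 0.35, or 6.33-fold (adjusted p = 2.57e-05).

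**Figure D1:**
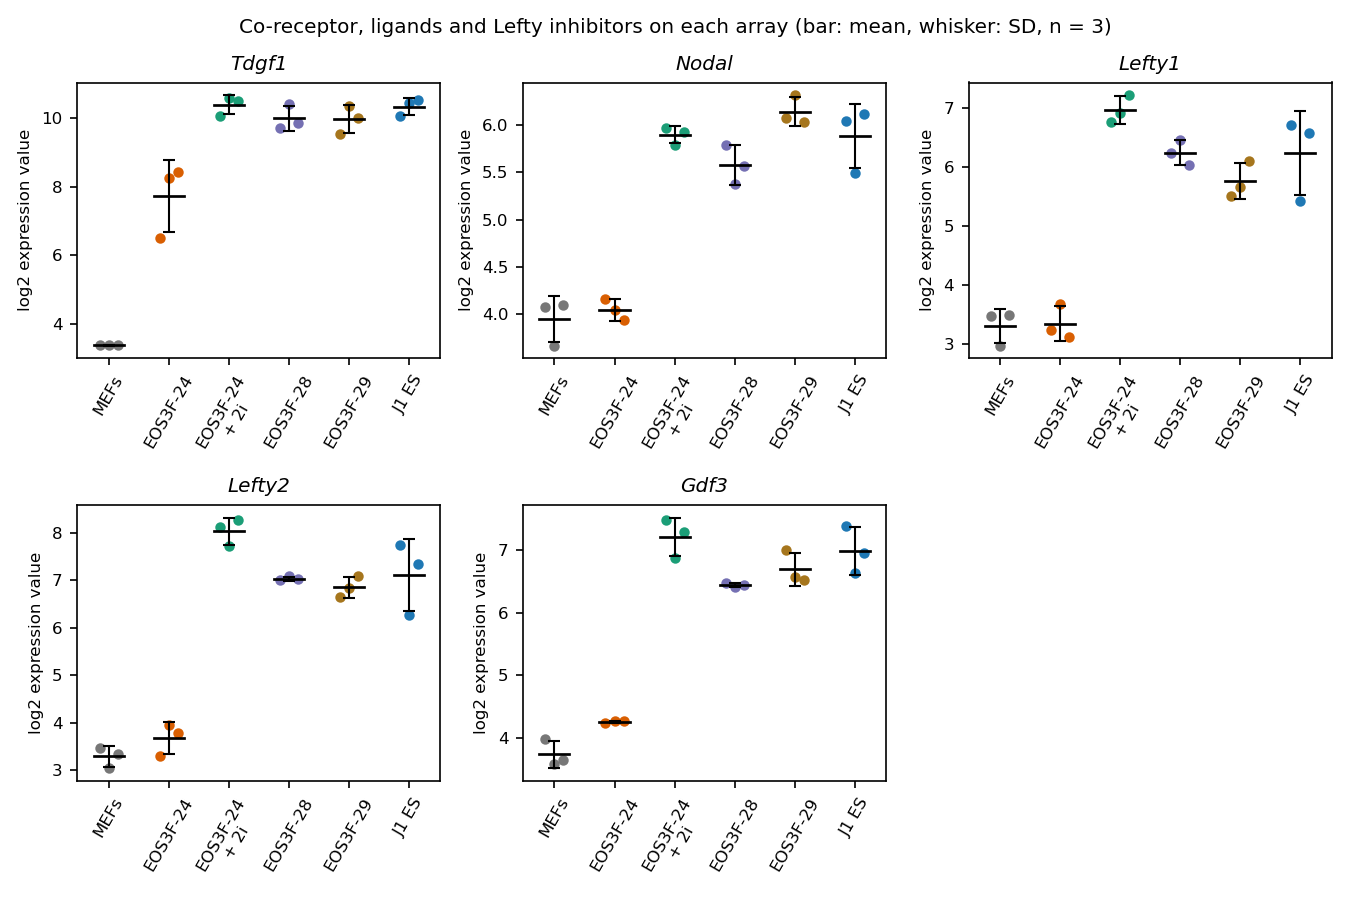
Log2 expression value of Tdgf1, Nodal, Lefty1, Lefty2 and Gdf3 (y axes, each with its own range) on the 3 arrays of each of 6 groups (x axes), with the mean as a bar and the SD as a whisker. In EOS3F-24 Tdgf1 lies between 6.51 and 8.43, while its Nodal, Lefty1 and Lefty2 arrays overlap those of MEFs.

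The RefSeq promoter table (GRCm38.p6) held 5 of the 10 genes. The 250 bases before the start of Tdgf1 and Nodal, which varied most among these 5, are shown beside those of Acvr1b, a gene with a smaller span. Each is given 5′ to 3′ on the gene's strand with CpG dinucleotides in capitals.
Tdgf1 (chr9:110946159-110946408, minus strand): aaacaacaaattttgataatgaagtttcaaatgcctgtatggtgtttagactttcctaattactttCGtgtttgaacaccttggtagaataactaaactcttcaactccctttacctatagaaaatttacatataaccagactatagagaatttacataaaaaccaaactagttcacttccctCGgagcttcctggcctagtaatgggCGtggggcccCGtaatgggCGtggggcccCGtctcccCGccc
Nodal (chr10:61417722-61417971, plus strand): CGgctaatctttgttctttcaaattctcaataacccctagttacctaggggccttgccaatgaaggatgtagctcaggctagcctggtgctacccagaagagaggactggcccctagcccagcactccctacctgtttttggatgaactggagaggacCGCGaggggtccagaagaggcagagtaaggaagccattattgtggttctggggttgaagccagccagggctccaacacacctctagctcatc
Acvr1b (chr15:101173822-101174071, plus strand): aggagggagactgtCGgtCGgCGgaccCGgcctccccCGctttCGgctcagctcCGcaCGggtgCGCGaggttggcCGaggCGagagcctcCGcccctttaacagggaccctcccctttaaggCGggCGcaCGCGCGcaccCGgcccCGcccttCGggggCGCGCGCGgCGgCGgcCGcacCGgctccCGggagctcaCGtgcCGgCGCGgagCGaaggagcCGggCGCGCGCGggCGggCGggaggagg

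The Tdgf1 window held 7 CpG and the Nodal window 3, against 42 in Acvr1b, 24 in Acvr2b and 22 in Smad3. The median over 27025 promoters was 6, and 99.2% of promoters had fewer CpG than Acvr1b. The run GGGCGTGG, looked for on both strands after the Tdgf1 sequence had been read, occurred 2 times in the Tdgf1 window and in 4.84% of all windows. The short Smad box GTCT, also on both strands, occurred 3 times for Tdgf1 and 0 times for Nodal, and 83.0% of windows held it. Neither of the Foxh1 cores AATCCACA and AATACACA, held by 0.75% and 0.92% of windows, was in any of the 5.

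Nodal, the ligand, did not accompany Tdgf1 in the partial line. Its values were 4.07, 3.67 and 4.10 in MEFs and 4.16, 4.04 and 3.93 in EOS3F-24, so the arrays of these groups overlapped. Converted cells read 5.97, 5.79 and 5.93, EOS3F-28 5.79, 5.38 and 5.56, EOS3F-29 6.08, 6.32 and 6.04, and J1 6.04, 5.49 and 6.11. EOS3F-29 (mean 6.14) was highest and lay above converted cells (5.90), which overlapped with J1 (5.88), and J1 with EOS3F-28 (5.58). EOS3F-24 (4.04) and MEFs (3.95) came last, with every array below those of the other groups.

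The difference in Nodal between EOS3F-24 and MEFs was 0.10 ± 0.16 (limma, adjusted p = 0.731). Nodal rose by 1.86 ± 0.16 from EOS3F-24 to converted cells, or 3.62-fold (adjusted p = 1.57e-07). Full lines exceeded MEFs by 1.92 ± 0.14 and J1 exceeded them by 1.94 ± 0.16. EOS3F-28 and EOS3F-29 did not overlap in Nodal, but their difference of -0.57 ± 0.16 was not called (adjusted p = 0.155).

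Gdf3 encodes a related ligand that can signal through the same receptors and co-receptor. It read 3.99, 3.58 and 3.65 in MEFs, 4.23, 4.26 and 4.27 in EOS3F-24, and 7.48, 6.88 and 7.30 after 2i. EOS3F-28 read 6.47, 6.42 and 6.44, EOS3F-29 7.0, 6.58 and 6.52, and J1 7.39, 6.63 and 6.95. Converted cells (7.22), J1 (6.99) and EOS3F-29 (6.70) overlapped as neighbours, and EOS3F-28 (6.44), EOS3F-24 (4.26) and MEFs (3.74) each lay apart from the group above.

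Gdf3 rose by 2.97 ± 0.18 from EOS3F-24 to converted cells, or 7.81-fold (limma, adjusted p = 2.12e-09), and was 7.14-fold higher in full lines than in MEFs. The small excess of EOS3F-24 over MEFs, 0.52 ± 0.18 (adjusted p = 0.0457), was lost without 5 of the 6 arrays: without MEF replicate 2 or 3 the adjusted p was 0.145 or 0.132, and without EOS3F-24 replicate 1, 2 or 3 it was 0.0813, 0.107 or 0.111. Cyclic loess (0.0915) and housekeeping centring (0.0755) ended it too.

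Lefty1 and Lefty2 encode secreted inhibitors that block Nodal. They lie close together on chromosome 1 with 1 protein-coding gene between them in the RefSeq table, and as close paralogs their probes may share sequence, which was not tested. Lefty1 read 3.47, 2.98 and 3.49 in MEFs, 3.24, 3.68 and 3.13 in EOS3F-24, and 6.76, 6.91 and 7.22 after 2i. EOS3F-28 read 6.24, 6.47 and 6.04, EOS3F-29 5.51, 5.67 and 6.10, and J1 6.71, 5.43 and 6.58. Converted cells (6.97) lay above all other groups, EOS3F-28 (6.25), J1 (6.24) and EOS3F-29 (5.76) overlapped as neighbours, and EOS3F-24 (3.35) overlapped with MEFs (3.31).

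Lefty2 had the wider range. It read 3.47, 3.04 and 3.34 in MEFs, 3.30, 3.95 and 3.77 in EOS3F-24, and 8.13, 7.71 and 8.27 after 2i. EOS3F-28 read 7.0, 7.08 and 7.02, EOS3F-29 6.64, 6.83 and 7.08, and J1 7.74, 6.27 and 7.35. From converted cells (8.04) through J1 (7.12) and EOS3F-28 (7.03) to EOS3F-29 (6.85) each group overlapped with the next, and EOS3F-24 (3.68) overlapped with MEFs (3.28). The J1 array numbered 2 was the lowest of its group for both Lefty genes, as it was for Nodal and Gdf3.

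EOS3F-24 and MEFs differed by 0.04 ± 0.27 in Lefty1 and 0.39 ± 0.27 in Lefty2 (limma, adjusted p = 0.947 and 0.344). From EOS3F-24 to converted cells Lefty1 rose by 3.62 ± 0.27, or 12.3-fold in measured values, and Lefty2 by 4.36 ± 0.27, or 20.5-fold (adjusted p = 2.71e-08 and 2.37e-09). Full lines exceeded MEFs by 2.69 ± 0.23 in Lefty1 and 3.66 ± 0.23 in Lefty2.

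**Figure D2:**
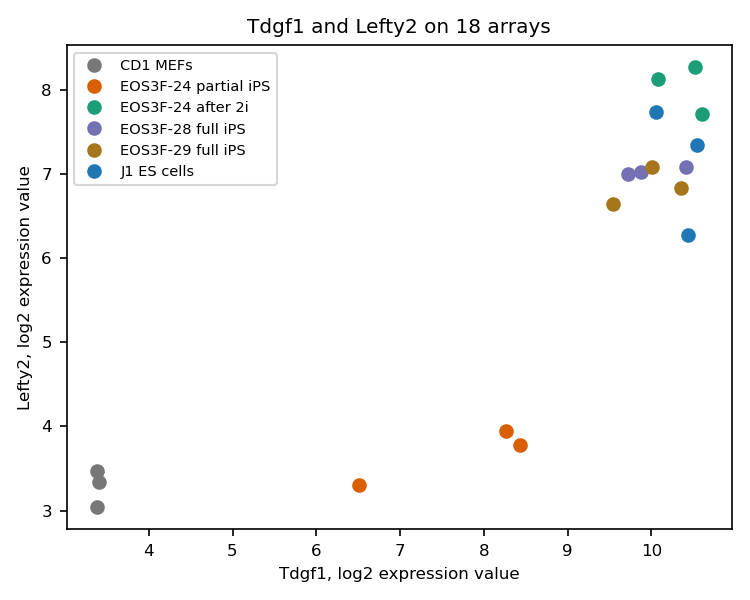
Log2 expression value of Tdgf1 (x axis) and Lefty2 (y axis), with a point for each of 18 arrays coloured by group. The EOS3F-24 arrays lie at 6.51 to 8.43 for Tdgf1 and at 3.30 to 3.95 for Lefty2, beside the MEF level of Lefty2 and apart from the 12 arrays at the upper right.

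Acvr1b encodes a type I receptor (ALK4) and Acvr2b a type II receptor for activins and Nodal. Their spans were small beside those of the ligands: the 6 group means of Acvr1b covered 1.04 log2 units and those of Acvr2b 0.86. Acvr1b read 4.96, 5.36 and 5.04 in MEFs and 5.55, 5.74 and 5.99 in EOS3F-24, with no overlap. Converted cells (6.16), J1 (6.15), EOS3F-29 (5.93), EOS3F-24 (5.76) and EOS3F-28 (5.65) overlapped as neighbours. Acvr2b read 4.12, 3.92 and 4.07 in MEFs and 4.47, 4.56 and 4.49 in EOS3F-24. Its arrays in the other 4 groups lay between 4.57 and 5.0, above those of EOS3F-24.

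EOS3F-24 exceeded MEFs by 0.64 ± 0.16 in Acvr1b and 0.47 ± 0.11 in Acvr2b (limma, adjusted p = 0.00564 and 0.00536), and the second call was lost with housekeeping centring (0.116). After 2i Acvr2b rose by a further 0.39 ± 0.11 (adjusted p = 0.0177), a call lost without EOS3F-24 replicate 1 (0.0575), without converted replicate 3 (0.0845) and with housekeeping centring (0.324). The difference in Acvr1b, 0.40 ± 0.16, was not called (adjusted p = 0.0804). With the replicate number as a block it was called (0.0402), as it was with cyclic loess (0.0113), without EOS3F-24 replicate 3 (0.0408) or without converted replicate 1 (0.0317).

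**Figure D3:**
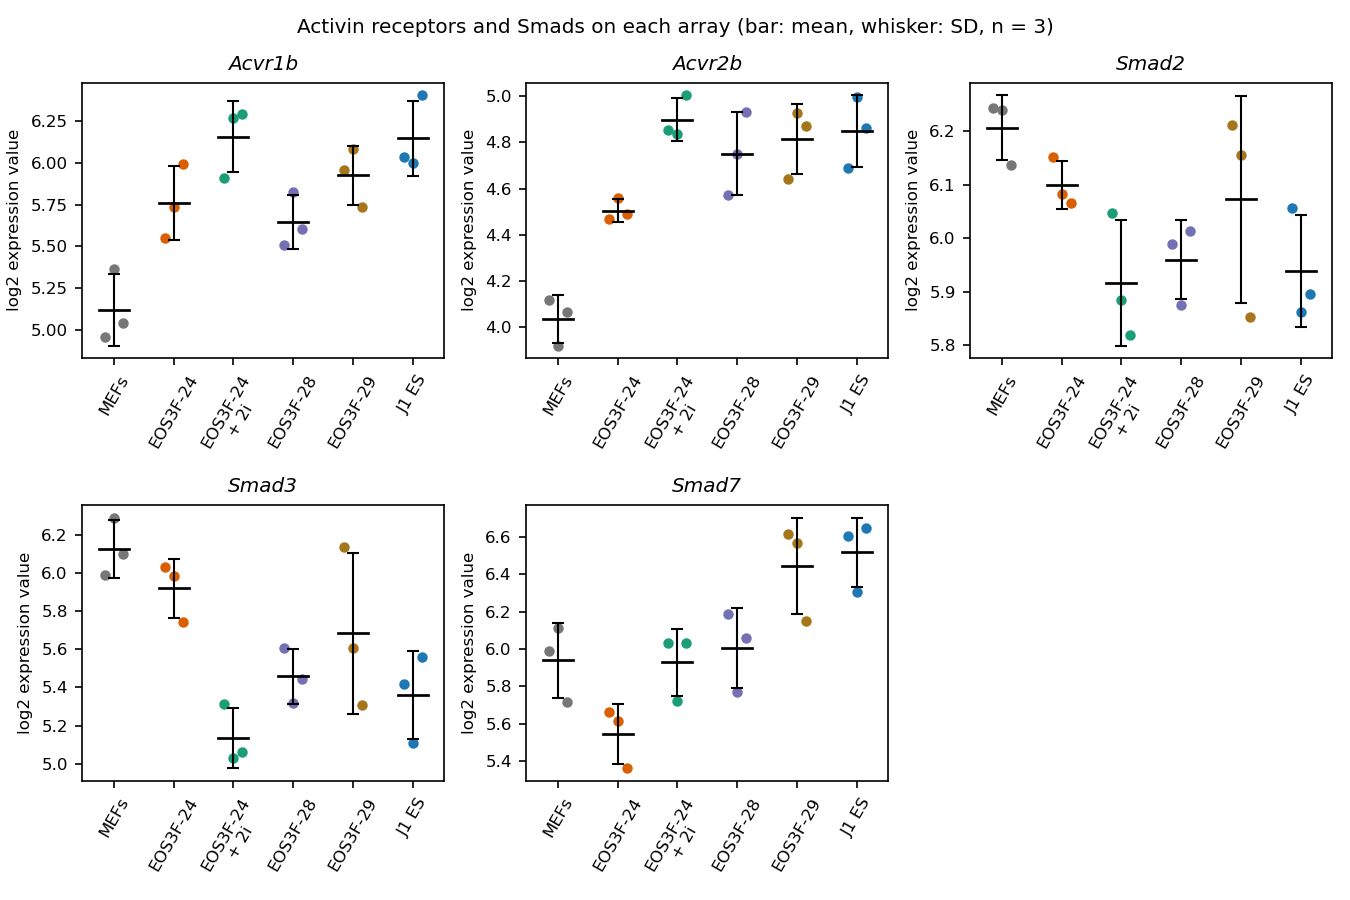
Log2 expression value of Acvr1b, Acvr2b, Smad2, Smad3 and Smad7 (y axes, each with its own range) on the 3 arrays of each of 6 groups (x axes), with the mean as a bar and the SD as a whisker. Both receptor genes are lowest in MEFs, Smad3 has its lowest mean after 2i, with arrays at 5.03 to 5.32, and Smad7 is lowest in EOS3F-24 at 5.36 to 5.66.

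Smad2 and Smad3 encode the transcription factors that the activated receptors phosphorylate. Smad2 varied least of the 10, with group means from 5.92 after 2i to 6.21 in MEFs, every neighbour overlapping, and it was called in none of the 9 comparisons. Smad3 read 5.99, 6.29 and 6.10 in MEFs, 6.03, 5.98 and 5.74 in EOS3F-24, and 5.32, 5.03 and 5.06 after 2i. EOS3F-28 read 5.61, 5.32 and 5.44, EOS3F-29 6.14, 5.61 and 5.31, and J1 5.42, 5.11 and 5.56. Converted cells were below EOS3F-24 on every array, while each group overlapped with its neighbours in the order MEFs, EOS3F-24, EOS3F-29, EOS3F-28, J1 and converted cells.

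From EOS3F-24 to converted cells Smad3 fell by 0.79 on the log2 scale (SE 0.17, limma, adjusted p = 0.00285). It was lower in full lines than in MEFs, at -0.56 ± 0.15 (adjusted p = 0.00738), and in J1 than in MEFs, at -0.77 ± 0.17 (adjusted p = 0.00182). When EOS3F-29 alone stood for full lines the first of these was no longer called, at -0.44 (adjusted p = 0.0621). Over the 15 feeder-grown arrays Smad3 went with the mean of the fibroblast markers at Pearson r = 0.71 and Smad2 at 0.71, while Nodal was at -0.03 and Tdgf1 at -0.51. These arrays share their group's culture and normalization, and the values are a description. With the arrays numbered 1 left out, the Smad3 difference of converted cells from EOS3F-24 was -0.82 (adjusted p = 0.00218), and of full lines from MEFs -0.71 (adjusted p = 0.000384).

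**Figure D4:**
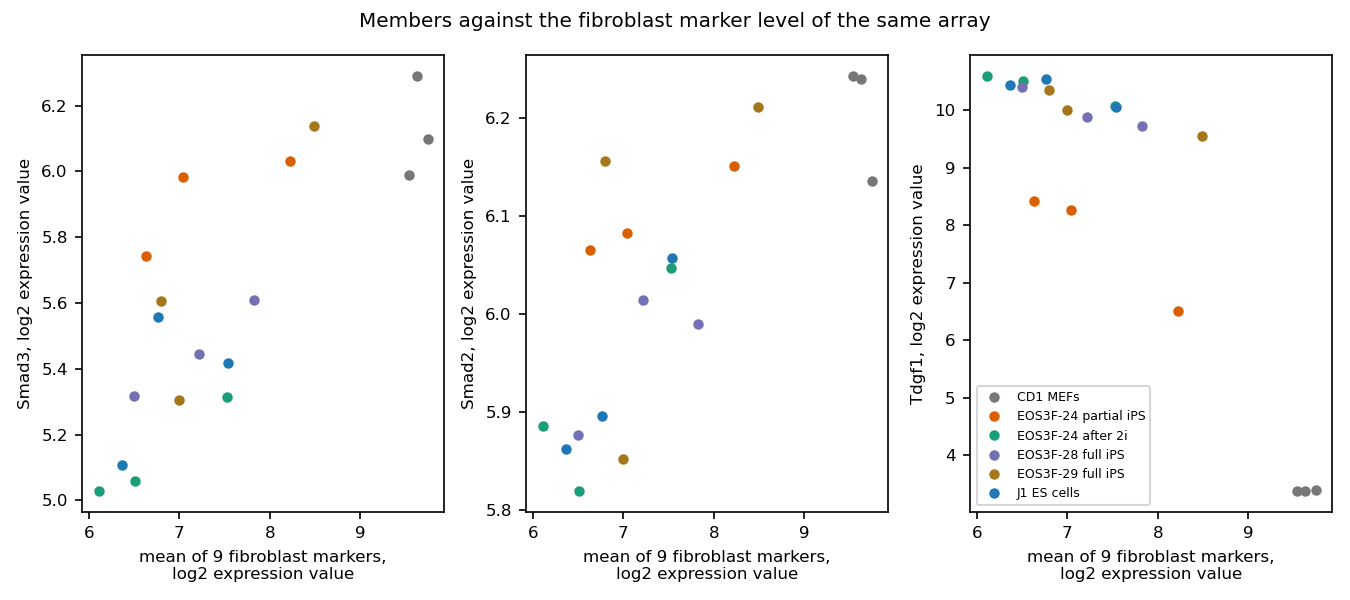
Log2 expression value of Smad3, Smad2 and Tdgf1 (y axes) against the mean log2 value of 9 fibroblast markers on the same array (x axes), with a point for each of 18 arrays coloured by group. Smad3 and Smad2 tend to be higher on arrays with more fibroblast marker signal, and the MEF arrays stand at the right at 9.54 to 9.75.

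Smad7 encodes an inhibitory Smad that is induced by TGF-beta family signals and blocks the receptors. It was lowest in EOS3F-24, at 5.66, 5.61 and 5.36, and lay between 5.72 and 6.65 on the arrays of all other groups. MEFs (5.94), converted cells (5.93) and EOS3F-28 (6.01) overlapped, as did EOS3F-29 (6.44) and J1 (6.52). EOS3F-24 was below the full lines by a difference of -0.68 ± 0.13 (limma, adjusted p = 0.00144), which was not called when EOS3F-28 alone stood for full lines (-0.46, adjusted p = 0.0565). Its difference from MEFs was -0.39 ± 0.16 (adjusted p = 0.0786), and it was called lower with cyclic loess (0.00983), with housekeeping centring (0.0353) and without MEF replicate 3 (0.0445). The difference of converted cells from EOS3F-24, 0.38 ± 0.16, was not called (adjusted p = 0.0905) except with cyclic loess (0.0109). J1 exceeded MEFs by 0.58 ± 0.16 (adjusted p = 0.00618). Full lines stood 0.29 ± 0.13 above MEFs (adjusted p = 0.114), called with cyclic loess (0.0226), without EOS3F-29 replicate 3 (0.0393) and when EOS3F-29 alone stood for full lines (0.0187).

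Each state was also compared with the MEFs over the 10 genes together, beside the share of all genes called. The members and the other gene lists were chosen with earlier results of these data known, so the counts here and below are a description. In full lines against MEFs 7 of the 10 were higher and 1 was lower, where 17.1% of all genes were called higher and 17.8% lower. The median difference of the 10 was 1.33, against 0.04 for all genes. In J1 against MEFs 8 were higher and 1 was lower, where 20.6% and 17.5% of all genes were. The gene not called there was Smad2, at -0.27 (limma, adjusted p = 0.0517), and it was called lower with cyclic loess (0.0262) and without J1 replicate 1 (0.0336).

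In EOS3F-24 against MEFs 4 of the 10 were higher (Tdgf1, Gdf3, Acvr1b and Acvr2b) and 0 were lower, where 13.7% of all genes were called higher and 10.0% lower. Of the 7 pluripotency markers 5 were called higher there. At an unadjusted p under 0.05 limma gave 4 higher and 1 lower, where it gave 19.8% and 13.9% of all genes. Cyclic loess gave 3 higher and 1 lower, the lower gene being Smad7. The 3 comparisons with MEFs share the same 3 MEF arrays.

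Partial and full lines were compared directly. Of the 10 genes 6 were lower in EOS3F-24 and 0 were higher, where 5.78% of all genes were called lower and 12.8% higher. At an unadjusted p under 0.05 limma gave 7 lower and 1 higher, where it gave 10.4% and 18.7% of all genes. Without EOS3F-24 replicate 2 the 3702 genes called in all became 2380. All 7 pluripotency markers were called lower in EOS3F-24 in the same comparison, such as Dppa5a at -4.37 and Utf1 at -4.14, and 3 of the 6 keratinocyte markers were called higher, with Krt13 at 3.79 and Krtdap at 3.22. Their part in the members' differences was not tested. Lefty2 (-3.27 ± 0.23), Lefty1 (-2.65 ± 0.23), Gdf3 (-2.32 ± 0.16), Tdgf1 (-2.25 ± 0.31), Nodal (-1.82 ± 0.14) and Smad7 (-0.68 ± 0.13) made up the 6. In all 6 the arrays of the groups did not overlap, and in the first 5 the adjusted p was at most 4.18e-05. Acvr1b stood at -0.03 ± 0.14 (adjusted p = 0.931). Smad3, at 0.35 ± 0.15 (adjusted p = 0.128), was called higher without EOS3F-29 replicate 1 (0.46, adjusted p = 0.0119). Acvr2b, at -0.28 ± 0.10 (adjusted p = 0.0601), was called lower with cyclic loess (0.0109), without EOS3F-28 replicate 1 (0.0306) and without EOS3F-29 replicate 1 (0.0259).

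Converted cells were compared with EOS3F-24, the line they came from, and the 2i inhibitors cannot be told apart here from time in culture or selection during conversion. Of the 10 genes 6 were higher in converted cells than in EOS3F-24 (Lefty2, Lefty1, Gdf3, Tdgf1, Nodal and Acvr2b) and 1 was lower (Smad3), where 9.36% of all genes were called higher and 13.0% lower. The median difference was 1.13, against 0.00 for all genes. The pluripotency markers moved with these genes: all 7 were called higher in converted cells, with a mean of 8.70 to 9.0 against 4.16 to 4.73. The mean of 6 keratinocyte markers was 3.91 to 3.97 against 6.40 to 6.93, with 4 of the 6 called lower. None of the 9 fibroblast markers was called in this comparison.

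**Figure D5:**
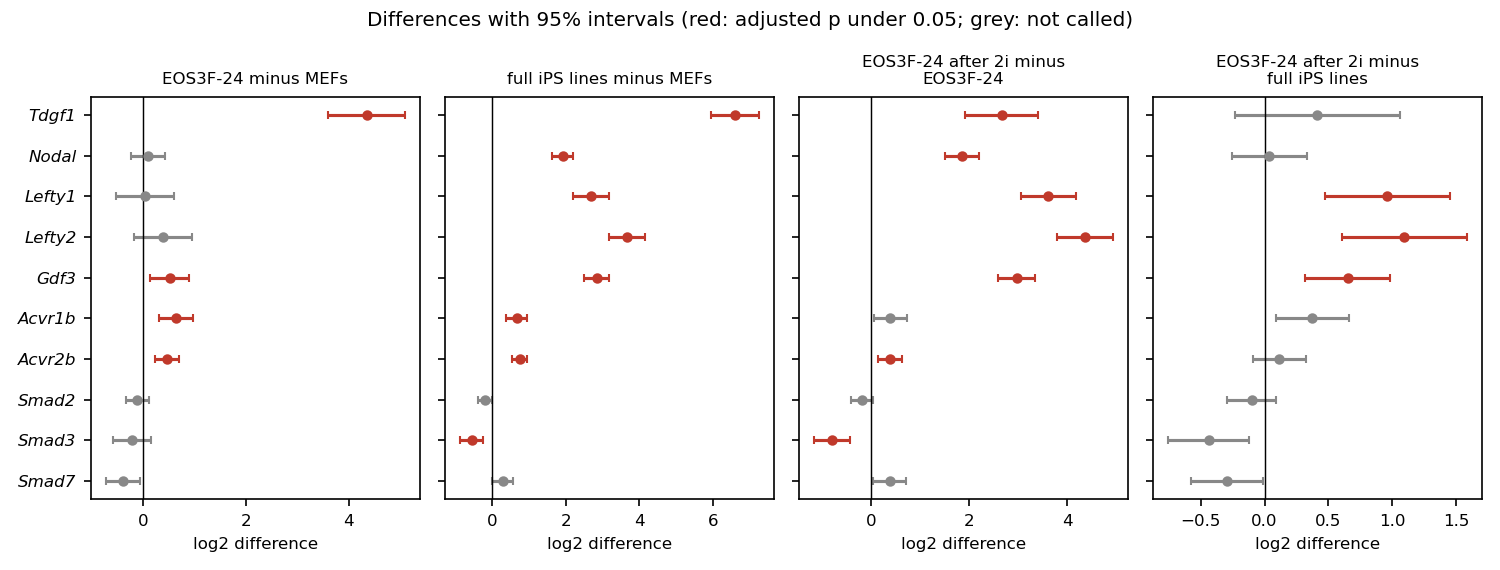
Difference of group means with its 95% interval (x axes, log2 scale, each panel with its own range) for the 10 genes (y axis) in 4 comparisons, red where called and grey where not. Tdgf1 is at 4.35 and Nodal, Lefty1 and Lefty2 at 0.04 to 0.39 in EOS3F-24 against MEFs, and these 4 are at 1.86 to 4.36 in converted cells against EOS3F-24.

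Converted cells were set against the full lines that had not been treated with 2i. The line, its earlier partial state and the 2i medium cannot be told apart in this comparison. Of the 10 genes 3 were higher and 0 were lower, where 3.96% of all genes were called higher and 1.20% lower. These 1029 genes became 351 without converted replicate 2 and 376 without converted replicate 3. Lefty2 was higher by 1.09 ± 0.23, or 2.13-fold, Lefty1 by 0.96 ± 0.23 and Gdf3 by 0.65 ± 0.16 (limma, adjusted p = 0.00982, 0.0204 and 0.0202). The converted arrays lay above all 6 full iPS arrays for both Lefty genes, and for Gdf3 they overlapped with them. In the same comparison 4 of the 7 pluripotency markers were called higher in converted cells (Esrrb at 1.21, Dppa5a at 1.21, Zfp42 at 1.06 and Nanog at 0.77), and 2 of the 6 keratinocyte markers were called lower (Krtdap at -2.44 and Krt13 at -1.37). Their part in the members' differences was not tested. Without converted replicate 3 none of the 3 was called (adjusted p = 0.0844 for Lefty2, 0.149 for Lefty1 and 0.12 for Gdf3). Lefty1 was also lost without converted replicate 2 (0.09), without EOS3F-28 replicate 3 (0.0508) and with EOS3F-28 alone (0.145). Gdf3 was also lost without converted replicate 1 (0.0975), with EOS3F-29 alone (0.162) and with housekeeping centring (0.0516).

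Tdgf1, at 0.41 ± 0.31 (95% interval -0.24 to 1.06), and Nodal, at 0.04 ± 0.14 (-0.25 to 0.33), were not called in this comparison. Smad3 (-0.44 ± 0.15, adjusted p = 0.114) and Smad7 (-0.30 ± 0.13, adjusted p = 0.256) stood lower in converted cells without being called. Centring on housekeeping genes gave 2 higher and 2 lower, with Smad3 (0.00644) and Smad7 (0.0216) as the lower 2. Over all genes housekeeping centring gave 280 higher and 2263 lower, with the median difference at -0.22. Cyclic loess gave 3 higher and 1 lower, Smad3 (0.0379). At an unadjusted p under 0.05 limma gave 4 higher and 2 lower, where it gave 10.8% and 6.81% of all genes. Without EOS3F-29 replicate 3 Smad3 was called as well (0.0347).

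Against J1 cells none of the 10 was called in converted cells, where 1.06% of all genes were called higher and 0.652% lower. These 342 genes became 155 and 136 without converted replicate 2 and 3, and 223 and 133 without J1 replicate 2 and 3. At an unadjusted p under 0.05, which 5.43% of all genes passed as higher and 5.77% as lower, limma gave 3 of the 10: Lefty1 at 0.73 ± 0.27, Lefty2 at 0.92 ± 0.27 and Smad7 at -0.59 ± 0.16 (adjusted p = 0.25, 0.108 and 0.0653). With the replicate number as a block Smad7 was called lower (0.0322), as it was with cyclic loess (0.0221) and housekeeping centring (0.00506). Over all genes housekeeping centring gave 84 higher and 1118 lower. Lefty2 was called higher without J1 replicate 1, at 1.23 (adjusted p = 0.0204). The 95% interval of the difference in Nodal ran from -0.32 to 0.35 and that in Tdgf1 from -0.69 to 0.80.

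Between full lines and J1 cells none of the 10 was called, where 1.29% of all genes were called higher and 3.47% lower in full lines, 949 genes that became 303 without J1 replicate 3. At an unadjusted p under 0.05, which 5.92% of all genes passed as higher and 11.2% as lower, limma gave 3, all lower in full lines: Gdf3 at -0.42 ± 0.16, Acvr1b at -0.36 ± 0.14 and Smad7 at -0.29 ± 0.13 (adjusted p = 0.156, 0.16 and 0.266). Between EOS3F-28 and EOS3F-29 none of the 10 was called either, with 0.301% of all genes called higher and 0.231% lower in EOS3F-28. These 106 genes became 62, 43 and 43 without EOS3F-28 replicate 1, 2 and 3, and 53 and 55 without EOS3F-29 replicate 2 and 3. At an unadjusted p under 0.05, which 3.48% of all genes passed as higher and 7.38% as lower, limma gave 2 as lower, Nodal and Smad7, the latter at -0.44 ± 0.16 (adjusted p = 0.281). Intervals were wide for some genes: that for Lefty1 ran from -0.08 to 1.05.

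The rest of the pathway was followed through 41 listed genes, of which 38 were measured with a probe set of their own. In full lines against MEFs 5 of the 38 were higher and 17 lower, where 17.1% and 17.8% of all genes were. In J1 against MEFs 6 were higher and 16 lower, beside 20.6% and 17.5% of all genes, and in EOS3F-24 against MEFs 4 and 12, beside 13.7% and 10.0%. The shares called higher were thus near or below those of all genes. The medians of their differences were -0.24, -0.27 and -0.23, against 0.04, 0.06 and 0.04 for all genes. In these 3 comparisons 8 of the 9 fibroblast markers were called lower and 0 higher, and their part in these falls was not tested.

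Among the other ligands Tgfb3 and Tgfb2, of the TGF-beta branch, were much lower than in MEFs in every reprogrammed or ES state tested. Tgfb3 averaged 8.02 ± 0.51 in MEFs (SD, n = 3) and differed by -3.21 ± 0.24 in full lines, -3.64 ± 0.28 in J1 and -2.95 ± 0.28 in EOS3F-24 (limma, adjusted p at most 5e-07). Tgfb2 differed by -2.10, -2.04 and -1.53. Tgfb1 was lower by 0.96 in full lines (-0.96, adjusted p = 3.98e-05), was at -0.37 in EOS3F-24 (adjusted p = 0.12), and fell by 0.73 after 2i (adjusted p = 0.00294). Inhba, which encodes the activin A subunit, was called in J1 against MEFs at -1.66 ± 0.44 (adjusted p = 0.00565) and was at -0.83 in both other comparisons with MEFs (adjusted p = 0.102 for full lines and 0.197 for EOS3F-24). Inhbb was called in none of the 9 comparisons.

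Among receptors Acvr2a, the paralog of Acvr2b, went the other way from it. Acvr2a averaged 6.37 ± 0.43 in MEFs (SD, n = 3). It differed from them by -1.27 ± 0.16 in full lines, -1.36 ± 0.18 in J1 and -0.98 in EOS3F-24 (limma, adjusted p at most 0.000514). Tgfbr1, a TGF-beta type I receptor gene, differed by -1.10 in full lines and -1.26 in EOS3F-24. Tgfbr2, its type II partner, differed by -1.38 in J1. Furin, a convertase that cuts the Nodal precursor, differed from MEFs by -1.29 ± 0.17 in full lines and -0.60 in EOS3F-24 (adjusted p = 1.19e-05 and 0.0329). EOS3F-24 stood above the full lines in Furin by 0.69, and it fell by 0.87 after 2i (adjusted p = 0.00691 and 0.00317).

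Foxh1, the Smad partner at Nodal targets, was low in MEFs and EOS3F-24 and higher on every array of the other 4 groups. It read 3.70, 3.64 and 3.66 in MEFs, 3.30, 3.53 and 3.73 in EOS3F-24, and 4.64, 5.04 and 4.79 after 2i. EOS3F-28 read 4.44, 4.46 and 4.20, EOS3F-29 4.94, 4.83 and 5.14, and J1 4.93, 4.70 and 4.94. The difference between EOS3F-24 and MEFs was -0.15 ± 0.13 (limma, adjusted p = 0.475), that between EOS3F-24 and the full lines -1.15 ± 0.11 (adjusted p = 1.01e-06), and after 2i it rose by 1.31 ± 0.13 (adjusted p = 1.05e-06). Smad4, the common Smad, was lower than in MEFs by a difference of -0.59 in full lines and -0.56 in J1, and it fell by 0.59 after 2i (adjusted p = 0.000339, 0.00165 and 0.00226).

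Tmeff1, which encodes a membrane protein reported to bind Cripto and inhibit Nodal signalling, was lowest in the partial line. It read 6.68, 6.16 and 6.29 in EOS3F-24, below all 15 other arrays. It was lower there than in MEFs by a difference of -1.13 ± 0.18 and than in full lines by -1.07 ± 0.16, and it rose by 1.44 ± 0.18 after 2i (limma, adjusted p = 0.000139, 7.97e-05 and 1.2e-05). Among other inhibitors, the follistatin gene Fst differed from MEFs by -1.15 ± 0.40 in full lines and -1.68 ± 0.46 in J1 (adjusted p = 0.031 and 0.00716). Fstl3 was at -1.13 in EOS3F-24, Smad6 at -1.0 in full lines and -1.01 in J1, and Pmepa1, a feedback inhibitor, at -1.16 in full lines and -1.86 in J1. The co-repressor gene Skil was higher in EOS3F-24 than in MEFs by 0.58 and fell by 0.69 after 2i (adjusted p = 0.0136 and 0.00433). Cer1, an inhibitor of the anterior embryo, was called in none of the 9 comparisons. Its arrays read 3.2 to 4.0, near or below the array medians, so it is not shown to be above background.

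Between EOS3F-24 and the full lines 5 of the 38 were higher and 4 lower, beside 12.8% and 5.78% of all genes. From EOS3F-24 to converted cells 4 were higher and 7 lower, beside 9.36% and 13.0%. These counts are close to what all genes gave and are no result about the pathway. Converted cells were higher than full lines in 1 (Pcsk6, a convertase gene, at 0.46, limma, adjusted p = 0.0148), beside 3.96% of all genes higher and 1.20% lower. They differed from J1 in 0, beside 1.06% and 0.652%. At an unadjusted p under 0.05 limma gave 1 against J1, as lower, beside 5.43% of all genes higher and 5.77% lower. Full lines differed from J1 in 2, both lower (Pcsk6 at -0.38 and Tgif1 at -0.36), beside 1.29% of all genes higher and 3.47% lower. EOS3F-28 was lower than EOS3F-29 in 1 (Foxh1), beside 0.301% of all genes higher and 0.231% lower. These counts of 0 to 2 are no result about the pathway either. Of the listed targets, Eomes lay below the array medians on every MEF and EOS3F-24 array. It was higher in full lines than in MEFs by 0.77 and in J1 by 0.68. It was lower in EOS3F-24 than in full lines, at -0.60 (limma, adjusted p = 0.000171), and higher in converted cells than in EOS3F-24, at 0.32 (adjusted p = 0.0431). Gsc, Mixl1 and Foxa2 were called in none of the 3 comparisons with MEFs. Over all arrays Mixl1 read 3.4 to 4.1 and Foxa2 3.7 to 4.1, near or below the array medians, so neither is shown to be above background.

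With predicted, clone-named and accession-named genes left out, 692 genes had group means that spanned at least 2 log2 units. From these the genes whose pattern over the 18 arrays was most like each of 5 members were taken. For Tdgf1 these were Msh6, Spint2, Nr0b1, Phc1 and Sinhcaf, at Pearson r = 0.97 to 0.98. For Nodal they were Utf1, Dnmt3l, Rps4l, Dppa2 and Mycn, at 0.96 to 0.97. Lefty1 was nearest to Lefty2 (0.99), followed by Zfp42, Esrrb, Zdbf2 and Dppa4. Lefty2 was nearest to Lefty1, Gdf3, Zfp42, Dppa2 and Zdbf2, and Gdf3 to Igf2bp1, Zfp42, Lefty2, Utf1 and Dppa2, at 0.98. Among the members, Nodal, Lefty1, Lefty2 and Gdf3 correlated with each other at 0.92 to 0.99 and with Tdgf1 at 0.83 to 0.88, while Tdgf1 was at 0.94 with Acvr2b. All these values describe 18 arrays in 6 groups and were not tested, since arrays of a group are not independent points.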

How the data were processed

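Expression was measured in 18 mouse samples with biotin-labelled targets made by a whole-transcript labelling assay from RNA extracted with an RNeasy kit, per the labels' protocols. Each deposited value is a log2 expression value of a probe set, which the authors obtained by RMA, according to the submitters' processing notes; RMA corrects background, normalizes between arrays and summarizes probes. The RMA version, build and annotation were not given in the sources used here. RMA compresses differences near background, and normalization removes a shift common to most genes.

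Of 34760 probe sets, 21640 had 1 gene symbol in the platform annotation, 1321 had several and 11799 had none, so they carry no name. For each of 19937 genes the probe set with the highest mean was used, a choice that was needed for 954. Some listed genes, Gdf1, Tdh, Fbn1 and T among them, are not analysed here.

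The sample titles gave each array's group and replicate number. The R 4.3.3 package limma 3.58.1 (lmFit, eBayes) fitted 1 mean per group over the 18 arrays. It tested 9 contrasts, adjusted by Benjamini-Hochberg across genes, in which full iPS cells are the average of both lines. On simulated data for converted against partial cells, 200 of 19937 genes were changed. The test recovered 57% of those changed 1.5-fold, 94.9% at 2-fold and 99.7% at 4-fold, and 5.5% of calls were false. The simulated arrays varied independently and had no other differences between groups. In the data, arrays with equal replicate numbers varied together in some comparisons, and 4456 genes were called in this one. These shares may therefore not hold for the data.

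The members and gene lists were chosen with earlier results of these data known. Named genes are the 10 members and 10 further measured pathway genes whether called or not, the 2 largest called rises and falls of at least 2-fold among pathway genes in each comparison, and the 5 genes closest in pattern to each of 5 members. Other pathway genes named were chosen after their values were seen. Deviations from the group means of arrays with equal replicate numbers correlated above 0.1 in every pair in 3 comparisons. The lowest of the 3 pairs was 0.122 between converted and partial cells, 0.15 between converted and J1 cells, and 0.149 between the full lines. The main fit did not pair arrays. Equal numbers were treated as pairs only in the replicate block, an alternative, on the basis of the data alone. Alternatives covered scaling, probe sets, dim genes, the spread, the arrays fitted, the replicate block and each array left out.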

Additional observations from a re-analysis of the deposited data

Results flagged for a closer look

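Over the 6 full iPS arrays, the largest gap at an end of the range took a share of 0.728 of the range for Gdf3 and 0.636 for Smad3, past the 95% critical value for 6 values. In both genes the array apart was EOS3F-29 replicate 1, at 7.0 for Gdf3 and 6.14 for Smad3. This array had the highest fibroblast marker mean of the feeder-grown arrays (8.49). Over those 15 arrays Gdf3 went with that mean at Pearson r = -0.09 and Smad3 at 0.71, and its part in the 2 values was not tested. Chance gives about 1 such result in 20 groups, and 10 genes were looked at.

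Foxh1 differed between the full lines, with EOS3F-28 minus EOS3F-29 at -0.602 (limma, adjusted p = 0.0473, all 3 arrays of EOS3F-28 below those of EOS3F-29). Since both lines are compared with the same MEFs, this is also the difference between their changes from MEFs.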

How the results depend on the processing

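Of 1451 differences of single members recomputed under alternatives, 1341 kept their direction and their side of the threshold, 22 lost a call and 32 gained one. A further 56 changed sign without being called, and no called difference changed sign. The count of members called, leaving out each array in turn, ranged from 6 to 8 for converted against partial cells, 0 to 4 for converted against full lines (0 without converted replicate 3), 0 to 1 for converted against J1, 9 to 10 for J1 against MEFs, 8 to 9 for full lines against MEFs, 6 to 8 for partial against full lines, 3 to 4 for partial against MEFs, and 0 to 0 for full lines against J1 and for EOS3F-28 against EOS3F-29. For converted against J1 it was 1 in place of 0 with cyclic loess, with housekeeping centring, with the replicate block, and without the 5 feeder-grown arrays numbered 1, an alternative chosen after seeing the data. The cause was not tested. For full lines against J1 the replicate block gave 1 in place of 0 (Gdf3, limma, adjusted p = 0.032), and for partial against full lines it added Acvr2b (0.0435) and for J1 against MEFs Smad2 (0.0384). In these 3 comparisons the deviations of arrays with equal numbers did not all correlate above 0.1. The correlations ran from -0.114 to 0.613 for full lines against J1 and from 0.067 to 0.435 for partial against full lines. For J1 against MEFs they ran from -0.109 to -0.003. The block ended no member's call in any comparison.

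Housekeeping centring used the mean of 9 genes: Actb, Hprt, Tbp, Ppia, Ywhaz, Sdha, B2m, Pgk1 and Gusb. These were not level over the groups. Hprt averaged 7.77 in MEFs, 8.68 in EOS3F-24, 9.68 after 2i and 8.32 to 8.51 in the full lines and J1. Actb averaged 12.34 in MEFs and 11.43 after 2i. Their part in the changed calls was not tested. This centring moved the median difference of all genes from 0.00 to -0.14 for converted against partial cells, from 0.00 to -0.22 against full lines and from -0.03 to -0.26 against J1. Over all genes, converted against full lines gave 790 higher and 239 lower, which became 668 and 483 with cyclic loess and 280 and 2263 with housekeeping centring. Partial against MEFs gave 2722 and 1995, which became 2138 and 2581 with cyclic loess and 1773 and 2187 with housekeeping centring, and the members' 4 and 0 became 3 and 1, and 2 and 1. Converted against J1 went from 212 and 130 to 84 and 1118, and converted against partial cells from 1866 and 2590 to 1047 and 3673, with housekeeping centring. With cyclic loess full lines against J1 went from 258 and 691 to 476 and 555, partial against full lines from 2549 and 1153 to 1812 and 1614, and EOS3F-28 against EOS3F-29 from 60 and 46 to 94 and 46. The 1029 genes called between converted cells and full lines became 1572 with the block and 493 when EOS3F-29 alone stood for full lines. Signal over background is unknown for members whose level lay below the array medians.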

Other observations

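EOS3F-24 arrays had a mean of 6.40 to 6.93 over 6 keratinocyte markers (Krt5, Krt14, Krt13, Krtdap, Trp63 and Sfn), against 5.41 to 5.67 in EOS3F-28, 4.28 to 4.46 in EOS3F-29, 4.10 to 4.17 in J1 and 3.91 to 3.97 after 2i. MEF arrays ranged from 3.72 to 5.24, with replicate 2 the highest. It read 7.7 for Krt5 and 7.1 for Krt14, against 3.49 and 3.62, and 4.10 and 4.18, on the other MEF arrays. The cause was not tested. Of the 6 markers 4 were called higher in EOS3F-24 than in MEFs, beside 13.7% of all genes. Krt5 (3.64 to 3.69) and Trp63 (3.69 to 3.90) were not called there and lay below the medians on every EOS3F-24 array. In EOS3F-28 against EOS3F-29 2 of the 6 were called higher, beside 0.301% of all genes.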
